A study of Canis lupus familiaris with 8 samples.

Results

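NR1H4 encodes the bile acid receptor FXR, and its transcript was followed here through 4 groups of MDCK I cells, which are a line of dog kidney epithelium. It is 1 of the 32704 genes in the count table, identified as ENSCAFG00000006835, and it was taken by that identifier, with earlier results of these data known. NR1H4 was among the 19835 genes whose counts summed to 5 or more across the 8 libraries, which were tested. All cultures received siRNA at 100 nM. The control, Neg-siRNA, targeted Slc22a6, chosen by the study as a gene without expression in this cell line. Neg-siRNA was used at 300 mOsm (isosmotic control) and, after 24 h in medium with added raffinose, at 500 mOsm (hyperosmotic control). Nfat5-1-siRNA and Nfat5-2-siRNA were different constructs against Nfat5, the transcription factor that drives the response to hyperosmolality, and both were used only at 500 mOsm with raffinose. There was no group with an Nfat5 siRNA at 300 mOsm and no group without siRNA. Each group had 2 libraries of polyA RNA, with passage 15 of the cells as replicate 1 and passage 17 as replicate 2, so that all values come from a single cell line and the p-values measure the spread between these passages.

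FXR is a nuclear receptor that is activated by bile acids and binds DNA mainly as a dimer with the retinoid X receptor. In liver and intestine it lowers bile acid synthesis and raises bile acid export, in part through the repressor NR0B2 (SHP) and the hormone FGF19. In the kidney it is known from the medulla and the collecting duct, where it has been linked to aquaporin-2, to urine concentration and to the survival of cells under hypertonicity.

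Library totals lay between 34564103 counts (isosmotic control, replicate 2) and 46043788 counts (Nfat5-1-siRNA, replicate 1). Levels are given as CPM, counts per 1000000 of the TMM-scaled library total, and as CPM per kb of exon where genes are compared with each other. Reads were counted per mate and not per pair, so that counting intervals are too narrow, and they cover counting error only. The labels were checked as far as gene names allowed. NFAT5 itself had no identifier paired with its name. RefSeq places NFAT5 between NQO1 and CYB5B on another dog assembly. In the count table the gene that follows NQO1 on chromosome 5 is ENSCAFG00000020254 (80003598 to 80115099, minus strand, CanFam 3.1), which was read as NFAT5 from this order alone, and ENSCAFG00000033447 (79968160 to 79979769, minus strand) lies nearer on the other side of NQO1. The reading is therefore uncertain. The study reports that Nfat5 mRNA rose significantly with hyperosmolality and that the Nfat5 siRNAs left its level unaffected. At the protein level, it found less Nfat5 by western blot with each of its Nfat5 siRNAs than in the hyperosmotic control. ENSCAFG00000020254 had 21.8 and 23.6 CPM in the isosmotic control, 85.9 and 78.5 CPM in the hyperosmotic control, 104 and 88.1 CPM under Nfat5-1-siRNA and 72.2 and 73.5 CPM under Nfat5-2-siRNA. It was thus higher in all 6 libraries at 500 mOsm, with a log2 fold change of 1.85 ± 0.15 (SE) in Neg-siRNA (adjusted p = 1.07e-05 by edgeR's quasi-likelihood test). Neither construct changed it significantly, with log2 fold changes of 0.22 ± 0.14 and −0.17 ± 0.14 (adjusted p = 1 for both), so its RNA level does not show which libraries received an Nfat5 siRNA. Of 34 marker genes for kidney tubule segments, hepatocytes, enterocytes and fibroblasts, 1 (AQP1) could be paired with an identifier, and the identity of the cells was therefore not checked by markers.

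NR1H4 was low in isosmotic cells and rose about 50-fold with hyperosmolality. Its counts in the isosmotic control were 35 and 31 in replicates 1 and 2, with 95% Poisson intervals of 24.4 to 48.7 and 21.1 to 44.0. In the hyperosmotic control the counts were 1577 and 1699. Relative to library size this was 0.787 and 0.918 CPM in isosmotic cells and 42.8 and 42.5 CPM in hyperosmotic cells, so that the groups lay far apart and the hyperosmotic replicates were nearly equal. The mean rose from 0.852 ± 0.0922 to 42.7 ± 0.174 CPM (SD, n = 2). The log2 fold change was 5.65 ± 0.24 (SE), a 50.2-fold rise with a 95% interval of 5.12 to 6.17 on the log2 scale (adjusted p = 1.41e-07 by edgeR's quasi-likelihood test). Within passage 15 the log2 difference was 5.68 and within passage 17 it was 5.46. Of all genes tested, 11.3% were significantly higher with hyperosmolality, and their median log2 fold change was 1.37. NR1H4 ranked 164 of these 2246 genes by log2 fold change and 77 among the 2065 of them with a mean of at least 1 CPM. By p-value it ranked 4 of all genes tested. With the passage as a block in the fit, 17.3% of the genes were significantly higher, and NR1H4 was again among them. Per kb of exon, NR1H4 had 0.258 CPM in isosmotic cells, above 29.6% of the genes tested, and 12.9 CPM in hyperosmotic cells, above 68.1% of them. Since RNA of whole cultures was sequenced, fewer cells that express a gene and less RNA per cell cannot be told apart.

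**Figure D1:**
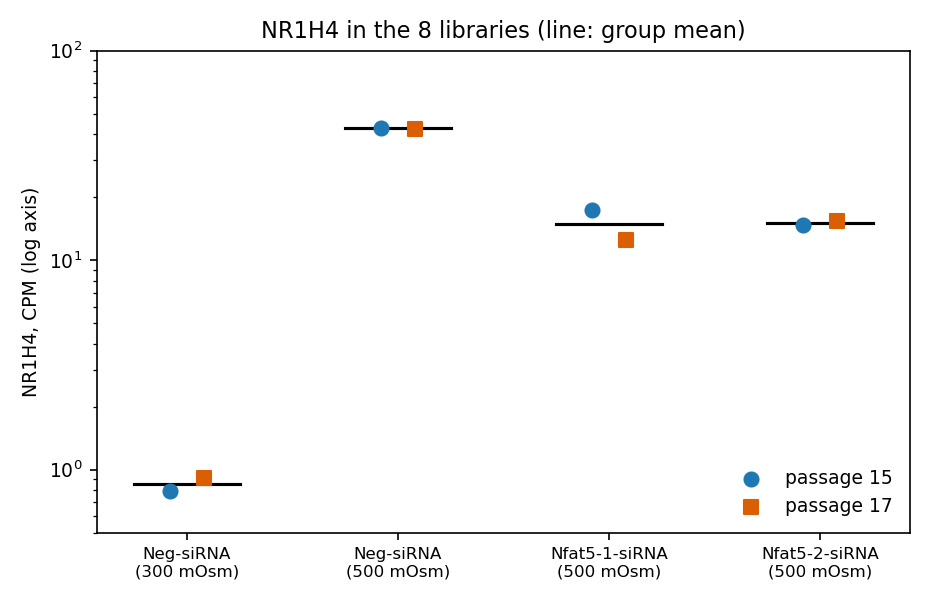
NR1H4 level in CPM on a log axis in each of the 8 libraries, by group, with passage 15 as circles, passage 17 as squares and the group mean as a line. Both isosmotic libraries lie below 1 CPM, the hyperosmotic control libraries lie at 42.8 and 42.5 CPM, and the 4 libraries with an Nfat5 siRNA lie between 12.4 and 17.4 CPM.

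With either Nfat5 siRNA, NR1H4 was lower than in the hyperosmotic control but remained far above the isosmotic level. Nfat5-1-siRNA had counts of 809 and 584, or 17.4 and 12.4 CPM. Nfat5-2-siRNA had counts of 617 and 651, or 14.7 and 15.4 CPM. The 4 libraries overlapped between the constructs, all 4 were below both hyperosmotic control libraries, and the spread between passages was widest with Nfat5-1-siRNA. The means were 14.9 ± 3.50 and 15.1 ± 0.521 CPM (SD, n = 2), or 4.51 and 4.55 CPM per kb.

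Under Nfat5-1-siRNA the level fell 2.86-fold, and the log2 fold change was −1.52 ± 0.19 (SE; 95% interval −1.93 to −1.11, adjusted p = 0.00165 by edgeR). It was −1.30 within passage 15 and −1.77 within passage 17. This call rested on replicate 2 of Nfat5-1-siRNA: without that library the log2 fold change was −1.30 and the adjusted p was 0.0906, whereas the call held without any other library. Under Nfat5-2-siRNA it fell 2.83-fold, and the log2 fold change was −1.50 ± 0.19 (SE; 95% interval −1.91 to −1.09, adjusted p = 0.00108 by edgeR), with −1.54 and −1.46 within passages 15 and 17. It was significant without any single library. Both falls were measured against the same hyperosmotic control libraries and are not independent of each other. Of the genes tested, 4.53% were significantly lower with Nfat5-1-siRNA, with a median log2 fold change of −1.27, and 7.38% were with Nfat5-2-siRNA, with a median of −1.11. With the passage as a block these shares were 11.9% and 15.3%, and NR1H4 was significant in both. NR1H4 ranked 343 of 898 and 419 of 1464 by the size of its fall, so its fall was of ordinary size among the genes that fell, unlike its rise with hyperosmolality.

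No difference in NR1H4 between the constructs was detected. The log2 difference of Nfat5-2-siRNA from Nfat5-1-siRNA was 0.01 ± 0.19 (SE), with an interval of −0.39 to 0.42 and an adjusted p of 1, and it was −0.24 within passage 15 and 0.31 within passage 17. Only 0.0403% of the genes tested, 8 genes, differed significantly between the constructs in this fit, or 4.94% with the passage as a block, NR1H4 not among them.

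Compared with the isosmotic control, NR1H4 was still 17.5-fold higher under Nfat5-1-siRNA, where the log2 difference was 4.13 ± 0.23 (SE; adjusted p = 8.80e-07 by edgeR). Under Nfat5-2-siRNA it was 17.7-fold higher, where the log2 difference was 4.15 ± 0.23 (SE; adjusted p = 7.27e-07 by edgeR). Significantly higher genes made up 13.2% and 12.7% of those tested in these comparisons. How much of the rise was undone depends on the scale. In log2 units, the share of the rise that was undone was 26.9% for Nfat5-1-siRNA (22.8% in passage 15 and 32.4% in passage 17) and 26.6% for Nfat5-2-siRNA (27.1% and 26.7%). In CPM, the constructs removed 66.4% and 66.0% of the gain, and 34.9% and 35.3% of the hyperosmotic level was left. NR1H4 belonged to a class of 325 genes, 1.64% of those tested, for which the hyperosmotic rise and the fall under each construct were all significant. It is also on the study's own list of genes selected for this pattern on these same libraries. Neither its calls nor its membership are therefore independent of that selection. Within that class it ranked 41 by its hyperosmotic rise, 144 genes fell more on average over the constructs, and 8 had a smaller share of the log2 rise undone. With both constructs, 120 of the 325 genes remained significantly above the isosmotic control, and NR1H4 ranked 26 of the 325 by the mean of that remaining log2 difference. The size of this class, and with it these ranks, depended on the test and the libraries. It held 459 genes by DESeq2 with the same adjustment and 875 with the passage as a block, NR1H4 among them. It held 124 and 84 genes without replicate 1 or 2 of the hyperosmotic control, 172 without replicate 1 of Nfat5-1-siRNA, 200 without replicate 2 of Nfat5-2-siRNA, and 36 without replicate 2 of Nfat5-1-siRNA, where NR1H4 was no longer in it. The order of the NR1H4 levels was the isosmotic control, then both constructs, between which no difference was detected, then the hyperosmotic control.

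**Figure D2:**
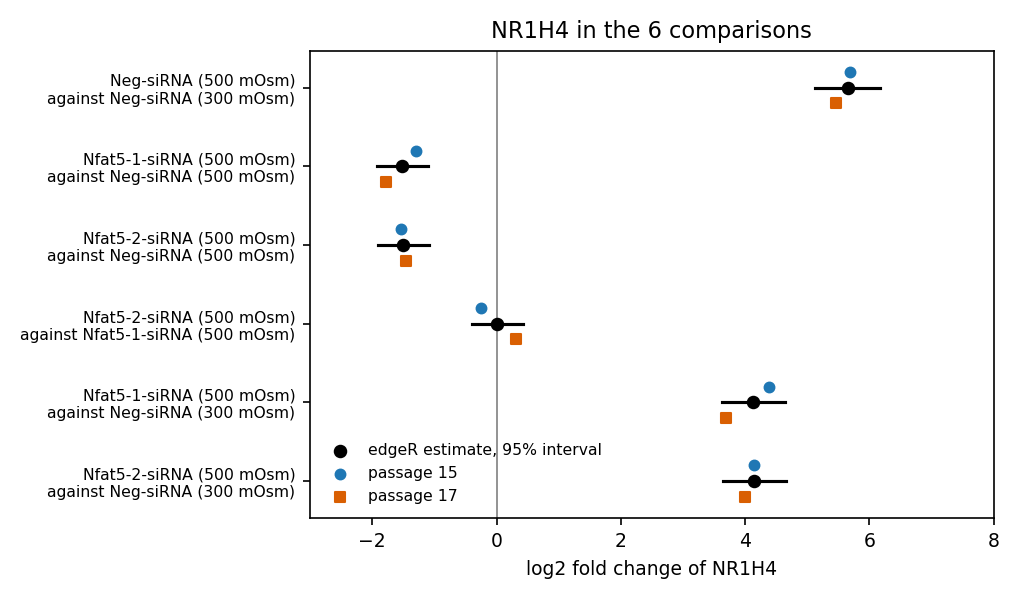
Log2 fold change of NR1H4 in the 6 comparisons between the groups, with the edgeR estimate and its 95% interval in black and the difference within passage 15 (circles) and within passage 17 (squares). The interval excludes 0 in all comparisons but that between the constructs, 0.01 (−0.39 to 0.42), where the passages fall on opposite sides of 0.

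The NR1H4 gene lies on chromosome 15 from 39552805 to 39609514 on the plus strand (CanFam 3.1), with 10 merged exons of 3306 bases in all. Its last exon, from 39607495 to 39609514, holds 2020 of these bases. Annotated genes on the minus strand, ENSCAFG00000031488 (39561815 to 39563203) within its span and ENSCAFG00000036538 (39600673 to 39622929) across its end, share 0 exonic bases with it. The count ignored strand, and the part of reads from these genes in the NR1H4 values was not tested. Their hyperosmotic log2 fold changes were −0.28 ± 0.51 and −0.55 ± 0.53 (SE, adjusted p = 1 for both), and their levels were below 1.2 CPM in all 8 libraries. The next gene after the end of NR1H4, ENSCAFG00000033050, had a hyperosmotic log2 fold change near 0, at 0.06 ± 0.25 (SE, adjusted p = 1). With Nfat5-2-siRNA it was −0.96 ± 0.25 (adjusted p = 0.140, or 0.0107 with the passage as a block).

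Both genes just before NR1H4 on the same strand rose with hyperosmolality, and the third was not significant. ENSCAFG00000033737 (39536090 to 39552163, plus strand, 2 exons, 637 exonic bases) ends 641 bases before NR1H4 starts. RefSeq, on another dog assembly, places NR1H4 between SLC17A8 and GAS2L3 and lists no protein-coding gene between SLC17A8 and NR1H4. ENSCAFG00000033737 had 2 and 0 counts in the isosmotic control, 219 and 243 in the hyperosmotic control, 124 and 115 in Nfat5-1-siRNA, and 112 and 138 in Nfat5-2-siRNA. It was therefore at the limit of detection in isosmotic cells and well detected in the other 6 libraries. The summed counts, 462 against 2, gave a ratio of 235 after scaling, with a counting interval of 64.8 to 1949 (adjusted p = 4.18e-06 by edgeR). Its count was 13.9% and 14.3% of that of NR1H4 in the hyperosmotic control, 15.3% and 19.7% with Nfat5-1-siRNA, and 18.2% and 21.2% with Nfat5-2-siRNA. Per kb of exon it had 9.44 CPM in the hyperosmotic control, beside the 12.9 CPM of NR1H4. Its log2 fold changes with the constructs were −1.23 ± 0.32 and −1.02 ± 0.32 (SE). Neither was significant, with adjusted p-values of 0.170 and 0.340, but both were with the passage as a block, at 0.00535 and 0.0389.

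The second gene before NR1H4, ENSCAFG00000006786 (39444146 to 39489608, plus strand, 13 exons), had 0 and 8 counts in the isosmotic control and 180 and 247 in the hyperosmotic control. Its counts were 81 and 92 with Nfat5-1-siRNA and 120 and 85 with Nfat5-2-siRNA, between those of the other groups. The hyperosmotic log2 fold change was 5.67 ± 0.68 (SE, adjusted p = 0.000282 by edgeR), and its size rested on these few isosmotic counts, with 6.68 within passage 15 and 4.45 within passage 17. With the constructs it was −1.58 ± 0.49 and −1.18 ± 0.48, with adjusted p-values of 0.383 and 0.960, and of 0.000729 and 0.0319 with the passage as a block. The third gene, ENSCAFG00000006752, had a hyperosmotic log2 fold change of only 0.43 ± 0.13 (SE, adjusted p = 0.221, or 0.0295 with the block).

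A window of 1 Mb on each side, chosen after these values were seen, held 23 other genes, of which 18 were tested. With hyperosmolality 7 of them were significantly higher and 0 were lower by edgeR (1 lower at an unadjusted p under 0.05 and 1 lower by DESeq2), 38.9% beside the 20.6% of all genes tested that changed in either direction. With the passage as a block, 8 were higher and 2 lower, 55.6% beside 33.1%. With Nfat5-1-siRNA 1 was lower and with Nfat5-2-siRNA 3 were, 5.56% and 16.7% beside the 4.53% and 7.38% of all genes tested that were lower. With the block these were 5 and 9 genes, 27.8% and 50% beside the 11.9% and 15.3% that were lower. The 18 genes had a median hyperosmotic log2 fold change of 0.56, and medians of −0.32 and −0.69 under the constructs, beside 0.00, −0.07 and −0.03 over all genes tested. ACTR6, which encodes an actin-related protein of a chromatin remodelling complex, had a log2 fold change of 1.21 with hyperosmolality (adjusted p = 0.00305), and of −1.08 and −1.40 with the constructs (adjusted p = 0.0187 and 0.00214). ANO4, of the anoctamin family of membrane proteins, had 2.47 with hyperosmolality (adjusted p = 1.96e-05), and −0.89 and −1.13 with the constructs (adjusted p = 0.0786 and 0.0130, and 1.17e-06 for Nfat5-1-siRNA with the block). The rises of ENSCAFG00000006942 and ENSCAFG00000033737 cannot be ranked with certainty, since both rest on few isosmotic counts. The largest fitted rise in the window was that of ENSCAFG00000006942 (40179872 to 40239634, minus strand), which had 0 and 8 counts in the isosmotic control, 2652 and 1321 in the hyperosmotic control, 1758 and 565 with Nfat5-1-siRNA and 1900 and 546 with Nfat5-2-siRNA. Its groups at 500 mOsm overlapped. The hyperosmotic log2 fold change was 8.94 ± 0.98 (SE, adjusted p = 0.000138), its size again resting on few isosmotic counts, with 10.55 within passage 15 and 6.86 within passage 17. With the constructs the log2 fold change was −1.08 and −0.85 (adjusted p = 1 for both, or 1.03e-07 and 8.52e-06 with the block). The remaining genes that rose had no significant change with at least 1 construct. ENSCAFG00000006964 had 1.82 with hyperosmolality (adjusted p = 0.000473), and 0.01 and −0.28 with the constructs (adjusted p = 1 for both). ENSCAFG00000006703 had 0.69 with hyperosmolality (adjusted p = 0.0258), and −0.12 and −0.95 with the constructs (adjusted p = 1 and 0.00470). Neighbouring genes are not independent of each other, and the siRNA and hyperosmotic comparisons share the hyperosmotic control libraries.

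**Figure D3:**
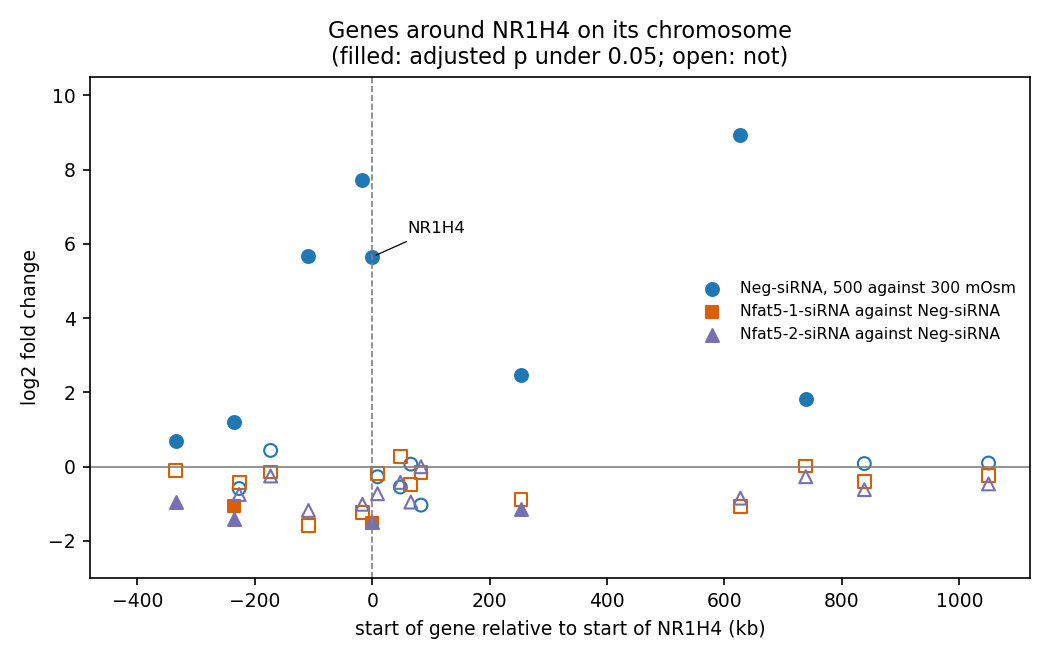
Log2 fold change of NR1H4 and 15 other genes by the distance of their start from that of NR1H4 in kb, with hyperosmolality (circles), Nfat5-1-siRNA (squares) and Nfat5-2-siRNA (triangles) and filled symbols for adjusted p-values under 0.05. Not drawn are 2 tested genes with a mean below 0.5 CPM and 1 gene that starts outside the axis. NR1H4, both genes just before it and ENSCAFG00000006942, 627 kb after it and the highest at 8.94, have fitted hyperosmotic log2 fold changes above 5, and the 3 genes that start next after NR1H4 starts lie between −0.55 and 0.06.

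Genes with a pattern like that of NR1H4 were found by the distance between log2 CPM values centred on each gene's mean over the 8 libraries, among the 12424 genes that averaged 1 CPM or more. The closest by far was NPTX2, a secreted pentraxin known from synapses, at a distance of 0.309 and with a Pearson's r of 0.999. The next gene was at 0.785, and the 10 closest had r between 0.985 and 0.999, over libraries that share 4 groups, so no p is given. NPTX2 had 2.50 and 3.32 CPM in the isosmotic control, 147 and 170 CPM in the hyperosmotic control, 55.9 and 42.5 CPM under Nfat5-1-siRNA, and 52.6 and 55.5 CPM under Nfat5-2-siRNA. Like NR1H4, it was lower in replicate 2 than in replicate 1 of Nfat5-1-siRNA and nearly level between the replicates of Nfat5-2-siRNA. Its log2 fold changes were 5.78 ± 0.22, −1.69 ± 0.18 and −1.55 ± 0.18 (SE; adjusted p = 5.90e-08, 0.000499 and 0.00051 by edgeR), each within 0.2 of those of NR1H4. NPTX2 was picked for its closeness to NR1H4 over these same libraries. The likeness of these values follows from that choice, and nothing is read from it.

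Of the 10 closest genes, 5 could be paired with a symbol. The others with a symbol were KSR1, a scaffold of the MAP kinase cascade, AKR1B1, the aldose reductase that makes sorbitol, SLC5A3, the sodium-coupled myo-inositol carrier, and MT1X, a metallothionein. KSR1 had 1.84 and 1.54 CPM in the isosmotic control, 80.9 and 75.5 CPM in the hyperosmotic control, 32.3 and 21.8 CPM under Nfat5-1-siRNA and 20.1 and 17.7 CPM under Nfat5-2-siRNA. Its log2 fold change was 5.52 with hyperosmolality and −1.53 and −2.05 with the constructs (adjusted p = 1.41e-07, 0.00168 and 0.000153), and the Nfat5-1-siRNA call was lost without replicate 2 of that group (adjusted p = 0.0814). AKR1B1 had log2 fold changes of 5.82, −2.21 and −2.10, and SLC5A3 had 5.92, −1.46 and −1.97, in the same order. The SLC5A3 rise rested on 14 and 6 counts in the isosmotic control. Its Nfat5-2-siRNA value was −1.50 without replicate 1 of the hyperosmotic control and −2.18 without replicate 1 of Nfat5-2-siRNA. The SLC5A3 value for Nfat5-1-siRNA was not significant (adjusted p = 0.0716, or 4.28e-07 with the passage as a block). MT1X belongs to a family of near-identical genes, whose reads cannot always be assigned to 1 copy. Of the 10, 6 belonged to the class of 325 genes defined above (1.64% of those tested), but all 10 were picked for a pattern like that of NR1H4, itself in the class, so nothing is read from this count. The names depend on the measure: ranked by r alone, 1 of the 10 (NPTX2) stayed among the 10 closest. With a mean of at least 10 CPM 7 did, but that filter only drops genes below it and leaves the other distances unchanged.

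**Figure D4:**
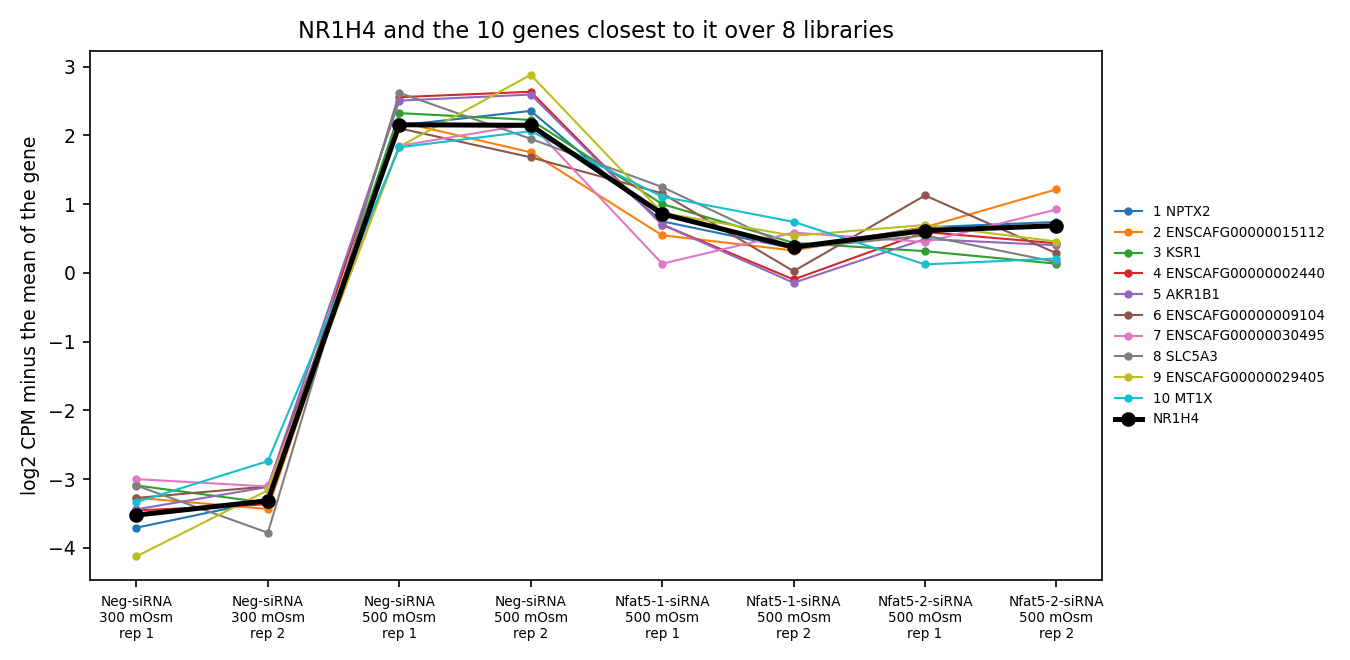
Log2 CPM minus the mean of each gene in the 8 libraries for NR1H4 (black) and the 10 genes at the smallest distance from it, numbered by rank. NPTX2 follows NR1H4 most closely, and all 10 are lowest in the isosmotic libraries and highest in the hyperosmotic control.

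Lists of FXR partners, targets, coregulators, bile acid genes, other nuclear receptors, osmolyte and water handling genes and cell markers were drawn up by function, 156 genes in all. Only 12 could be paired with an identifier, because the sources used here give symbols only for genes that the study had selected on these same libraries. Among those not paired were the retinoid X receptors, the FXR targets NR0B2, SLC51A, SLC51B and FGF19, and AQP2, and no value is given for them. NR1H4 and the 11 other genes thus come from a selection for change, and the counts of the 11 are a description without independent weight. With hyperosmolality 8 were significantly higher and 3 lower, beside the 20.6% of all genes tested that changed. With Nfat5-1-siRNA 3 were higher and 4 lower, and with Nfat5-2-siRNA 3 were higher and 7 lower, beside 7.93% and 12% of all genes tested that changed. With the passage as a block all 11 were significant for each construct, beside 21.5% and 26.1%. Their median log2 fold changes were 3.47, −1.29 and −1.47, and 0 of the 11 differed significantly between the constructs by edgeR or by DESeq2, with 1 at an unadjusted p under 0.05. Many of these calls were lost when a library was left out, which leaves 1 library in its group. Without replicate 1 of the hyperosmotic control the hyperosmotic calls numbered 7 and those of the constructs 3 and 4. Without replicate 1 or 2 of Nfat5-1-siRNA they numbered 4 or 2 for that construct, and without replicate 1 or 2 of Nfat5-2-siRNA 5 or 6.

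Of 49 nuclear receptors, 4 were paired. RORA, the retinoic acid-related orphan receptor alpha, was highest in the hyperosmotic control, as NR1H4 was. It had 0.652 and 1.45 CPM in the isosmotic control, 12 and 11 CPM in the hyperosmotic control, 4.66 and 3.34 CPM under Nfat5-1-siRNA and 1.74 and 2.70 CPM under Nfat5-2-siRNA. Its log2 fold change was 3.47 ± 0.38 (SE, adjusted p = 0.00014 by edgeR) with hyperosmolality. With the constructs it was −1.52 ± 0.34 (adjusted p = 0.0690, or 9.91e-06 with the passage as a block) and −2.37 ± 0.35 (adjusted p = 0.00355). NR2F6, an orphan receptor that mostly represses transcription, had 0.70 with hyperosmolality and −0.61 and −0.87 with the constructs (adjusted p = 0.0173, 0.0827 and 0.00622, and 0.00119 for Nfat5-1-siRNA with the block). The retinoic acid receptor RARG moved in the opposite direction, with −0.82 with hyperosmolality and 1.02 and 1.17 with the constructs (adjusted p = 0.0105, 0.00599 and 0.00154). Leaving out a library ended at least 1 call of RORA, NR2F6 and RARG, and both NR2F6 calls were lost without any 1 of the libraries compared, with adjusted p-values up to 0.184.

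Per kb of exon, the order of these receptors changed with the condition. In the isosmotic control, NR2F6 had 25.1, RARG 13.5, NR1H4 0.258 and RORA 0.183 CPM per kb. In the hyperosmotic control the levels were 40.6 for NR2F6, 12.9 for NR1H4, 7.66 for RARG and 2.00 for RORA. NR1H4 thus passed RARG with hyperosmolality, and with both constructs it was again below it, at 4.51 and 4.55 beside 15.5 and 17.2 CPM per kb.

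**Figure D5:**
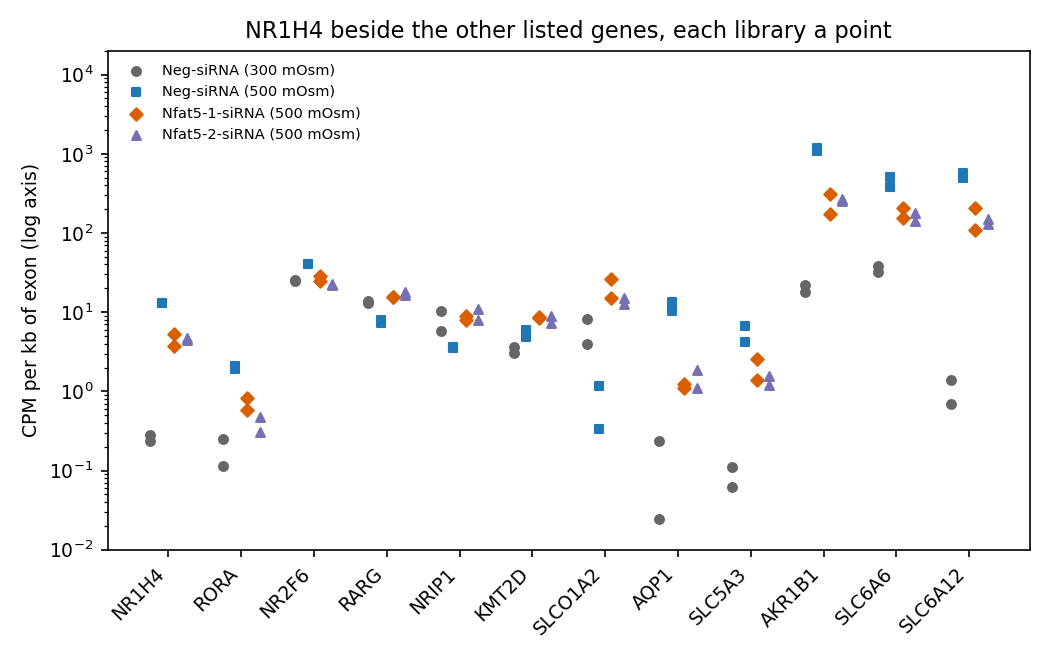
Level in CPM per kb of exon on a log axis for NR1H4 and the 11 other listed genes that could be paired with a symbol, a point for each of the 8 libraries, by group. NR1H4 spans 0.258 to 12.9 CPM per kb between the Neg-siRNA group means, while NR2F6 spans 25.1 to 40.6.

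Among 17 FXR coregulators, 2 were paired. NRIP1, a corepressor of many nuclear receptors, had 35.8 and 20.1 CPM in the isosmotic control, 12.5 and 12 CPM in the hyperosmotic control, 27.7 and 30.8 CPM under Nfat5-1-siRNA and 37.9 and 27.7 CPM under Nfat5-2-siRNA. NRIP1 was thus lowest where NR1H4 was highest. Unlike NR1H4, it did not lie between the controls with the constructs, where its log2 differences from the isosmotic control were 0.06 and 0.23, neither significant. Its log2 fold changes were −1.19, 1.26 and 1.42 (adjusted p = 0.0182, 0.0295 and 0.00926), and each call was lost without at least 3 of the libraries, left out in turn, with adjusted p-values up to 0.469. KMT2D, a histone H3 lysine methyltransferase, had 0.70 with hyperosmolality (adjusted p = 0.0389, lost without each of 6 libraries left out in turn) and 0.66 and 0.58 with the constructs (adjusted p = 0.109 and 0.171, or 0.000205 and 0.00139 with the block).

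SLCO1A2, an organic anion carrier that takes up bile acids, was the paired member of 13 bile acid transport genes. It had 8.66 and 18.1 CPM in the isosmotic control, 0.732 and 2.55 CPM in the hyperosmotic control, 33.5 and 58.4 CPM under Nfat5-1-siRNA and 33.1 and 28.2 CPM under Nfat5-2-siRNA. It was thus lowest where NR1H4 was highest, and all 4 libraries with an Nfat5 siRNA were above the isosmotic libraries. That difference was significant for Nfat5-1-siRNA by edgeR (adjusted p = 0.0314, or 0.363 by DESeq2) and not for Nfat5-2-siRNA (adjusted p = 0.293, or 1 by DESeq2), and for both with the passage as a block (adjusted p = 6.62e-15 and 2.74e-09). The log2 fold changes were −3.0 ± 0.46 with hyperosmolality and 4.79 ± 0.48 and 4.2 ± 0.47 with the constructs (SE; adjusted p = 0.00219, 0.000409 and 0.000492 by edgeR). The water channel AQP1 had 3 and 22 counts in the isosmotic control, 1072 and 1490 in the hyperosmotic control, 143 and 161 with Nfat5-1-siRNA and 129 and 216 with Nfat5-2-siRNA. Its log2 fold change was 6.63 ± 0.54 with hyperosmolality and −3.35 ± 0.42 and −3.02 ± 0.42 with the constructs (SE; adjusted p = 1.13e-05, 0.00174 and 0.002), with the Nfat5-1-siRNA call lost without replicate 1 or 2 of that group. The size of the AQP1 rise rested on the few isosmotic counts, with a log2 difference of 7.98 within passage 15 and 5.74 within passage 17, and a fitted value of 5.62 or 8.88 without replicate 1 or 2 of the isosmotic control. The osmolyte genes SLC6A6, SLC6A12, SLC5A3 and AKR1B1 had hyperosmotic log2 fold changes of 3.66, 9.01, 5.92 and 5.82, beside the 5.65 of NR1H4. The SLC5A3 value rested on few isosmotic counts, 14 and 6.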

How the data were processed

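Paired-end reads of polyA RNA (NEBNext Ultra II, NovaSeq) were mapped by the authors with HISAT2 2.0.5 to CanFam 3.1 and counted per gene on Ensembl 92 exons with featureCounts 1.5.1, per the file headers without regard to strand and without pair counting. The authors deposited raw read counts, with exon lengths and coordinates. Groups were compared by edgeR 4.0.16 under R 4.3.3 (TMM, quasi-likelihood test, 4 groups, all 8 libraries, summed count of at least 5, Benjamini-Yekutieli adjustment, threshold 0.05, two-sided). SEs came from the F statistic, and log2 CPM used a prior count of 2. Every library column of the table was used (0 left out).

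Passage 15 was replicate 1 and passage 17 replicate 2 in the labels, so libraries were paired by passage. The passage differences correlated across 12424 genes with a Pearson's r between 0.123 and 0.465 for each pair of groups, and the passage was a block in an alternative fit. Other alternatives were DESeq2 1.42.0, its size factors, other filters and adjustments, only the libraries compared, and each library left out. The fits were tested on simulated data.

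Symbols came from 860 identifiers paired in a table of the study. RefSeq neighbours came from UU_Cfam_GSD 1.0, of which no coordinates are given. Fold change and p-value columns of that table were not used. NR1H4 and the lists were chosen with earlier results of these data known. Named genes were NR1H4, the siRNA targets, listed genes that could be paired (up to 4 of the largest changes per list), the 10 genes most like NR1H4 and the 3 nearest genes on each side. Genes of the wider window were chosen after their values were seen.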

Additional observations from a re-analysis of the deposited data

How the results depend on the processing

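Over 8 alternatives of normalization, filter, test, adjustment, passage block and libraries in the fit, the hyperosmotic log2 fold change of NR1H4 lay between 5.63 and 5.66, that of Nfat5-1-siRNA between −1.53 and −1.46 and that of Nfat5-2-siRNA between −1.50 and −1.43, all significant, with adjusted p-values of at most 1.85e-05, 0.00963 and 0.00414. The passage as a block changed no NR1H4 call. With a library left out, these log2 fold changes ranged from 5.49 to 5.75, from −1.78 to −1.30 and from −1.54 to −1.40. 1 call was lost, that of Nfat5-1-siRNA without its replicate 2 (−1.30, adjusted p = 0.0906). Above Neg-siRNA (300 mOsm), the ranges were 3.87 to 4.35 and 4.08 to 4.25. The difference between the constructs ranged from −0.21 to 0.28 and turned negative without replicate 2 of Nfat5-1-siRNA (−0.21) or replicate 2 of Nfat5-2-siRNA (−0.02), not significant in any. A left-out library leaves 1 in its group, which is then assumed to vary like the others.

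The undone share for Nfat5-1-siRNA ranged from 22.9% to 31.5% with a library left out. That for Nfat5-2-siRNA was 25.8% with DESeq2's size factors and 25% to 27.2% with a library left out. Of the 11 listed genes, 11 were significant with Nfat5-1-siRNA without a filter, with DESeq2 under either adjustment, with the Benjamini-Hochberg adjustment in edgeR and with the block, in place of 7. With only the 4 libraries compared in the fit, the hyperosmotic calls of NRIP1 and KMT2D were lost (adjusted p = 0.0590 and 0.0821 by edgeR). The Nfat5-2-siRNA call of NR2F6 was lost too (0.0581), and an Nfat5-1-siRNA call of RORA was gained (0.0219). With edgeR's own filter on low counts, NRIP1 lost its Nfat5-1-siRNA call (0.0720). With a library left out, the calls of listed genes numbered 7 to 11 for hyperosmolality, and 2 to 8 and 4 to 10 for the constructs. The class of 325 genes, whose alternatives were chosen after seeing the data, held 591 genes without a filter, 780 with DESeq2 and 816 with edgeR under the Benjamini-Hochberg adjustment, 875 with the block, and 36 to 261 with a library left out. NR1H4 was in it in all of these but without replicate 2 of Nfat5-1-siRNA. Ranked by Pearson's r, 1 of the 10 genes most like NR1H4 was shared. Genes near NR1H4 that were not significant turned direction without a library. ENSCAFG00000031488 ranged from −0.70 to 0.20 with hyperosmolality and from −0.44 to 0.083 with Nfat5-1-siRNA, ENSCAFG00000036538 from −0.053 to 0.52 and from −1.13 to 0.041 with the constructs, and ENSCAFG00000033050 from −0.15 to 0.27 with hyperosmolality. The causes of these shifts were not tested. Depth limits the values in isosmotic cells, where NR1H4 rests on 35 and 31 counts.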
